A study of Mus musculus with 8 samples.

Results

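The 44 collagen genes of the mouse array were followed through 6 days of differentiation in embryonic stem (ES) cells with normal Nkx2-5 and in cells heterozygous for its R141C allele. A gene was included when a probe that is not a control carried a gene name made of Col, a number, the letter a and a number. Where a gene had several probes, the one with the highest mean log2 signal over the 8 arrays was used. This rule took 69 probes of 44 genes out of 34736 gene names on the array. Of these genes 39 could be tested, because in 1 group or more the probe passed the scanner's flag for signals well above background on the arrays of both replicates, and 27 passed it on all 8 arrays. Col10a1, Col28a1, Col4a3 and Col6a6 were above background on none, and Col24a1 on 2.

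Collagens are the main structural proteins of the extracellular matrix. Their chains, rich in glycine and proline, wind around each other into a triple helix in the endoplasmic reticulum, where proline and lysine residues are hydroxylated, and most are cut, assembled and crosslinked after secretion. Fibrillar collagens build the cables of connective tissue, fibril-associated collagens coat them, collagen IV forms the sheet of basement membranes and collagen VI forms beaded filaments around cells. In the embryo, basement membrane collagen is made early, whereas fibrillar collagens mark mesenchyme, cartilage and the valves and fibroblasts of the heart.

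The study asked how a point mutation in Nkx2-5, a homeobox factor needed for heart development, changes gene expression while ES cells form cardiac progenitors. The wild-type (WT) group and the R141C group were each sampled at day 0, before differentiation, and at day 6, with 2 biological replicates per group and 1 array per replicate. For day 6, embryoid bodies were formed without LIF in hanging drops of 800 cells for 2 days, kept in suspension for 3 days and plated on gelatin at day 5 for 24 hours. Whether the R141C cells come from 1 clone or several is not given in the sources used here. Signals are given as log2 of the processed intensity minus the 75th percentile of the array, so 0 is the brightness of that percentile, and levels are compared between arrays for 1 probe and never between probes. Differences come from 1 limma model of the 4 group means, with adjusted p-values (Benjamini-Hochberg over 25892 genes, two-sided). A gene "rose" or "fell" only where its adjusted p was under 0.05, and errors after ± are standard errors of that model unless stated otherwise.

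Between 55.8% and 70.5% of the probes were well above background per array. Day 0 arrays filled 1 column of the only slide and day 6 arrays the other, so slide position and day cannot be told apart. All 6 pluripotency markers fell in both genotypes by day 6. The cardiomyocyte markers (6 genes) had mean log2 signals of -0.76 and -2.05 in WT and -0.96 and -0.09 in R141C at day 0. By day 6 the means were 3.70 and 4.05 in WT and -1.91 and 1.89 in R141C. Of these 6 genes 4 rose in WT and 1 in R141C. R141C replicate 1 was the low day 6 sample. The 8 fibroblast and mesenchyme markers had means of 1.07 and 1.48 in WT and -1.08 and 1.15 in R141C at day 6, replicate 1 again being low. Of these 8 genes 5 rose and 1 fell in WT, and 4 rose in R141C. Each marker of both lists was above background on at least 1 array. In a mixed culture fewer cells of a type and less RNA per cell cannot be told apart. The Nkx2-5 probe does not read the point mutation. Its signals were -1.27 and -2.02 in WT and 1.84 and -0.77 in R141C at day 0. By day 6 they were 1.93 and 1.79 in WT and 1.53 and 1.58 in R141C.

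Between day 0 and day 6, 14 of the 39 tested collagen genes changed in WT cells, 10 of them upwards and 4 downwards. That is 35.9%, beside 24% of all tested genes (11% upwards and 12.9% downwards). The median difference of the 39 was 0.56, beside -0.12 over all genes. In 29 of the 39 genes the day 6 signals did not overlap with those of day 0, 20 higher and 9 lower, a share of 74.4% beside 71.3% of all genes (29.8% higher and 41.5% lower). In R141C cells 10 of the 39 changed over the same days, 6 upwards and 4 downwards. That is 25.6%, beside 15.6% of all genes (7.6% upwards and 8.04% downwards), with a median of 0.39 beside -0.03. The signals did not overlap between the days for 21 genes, 12 higher and 9 lower, a share of 53.8% beside 56% of all genes (25.6% higher and 30.4% lower).

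Col13a1, Col14a1, Col23a1, Col26a1 and Col9a1 rose and Col5a3, Col6a4 and Col6a5 fell in both genotypes. These 8 genes make up 57.1% of the 14 WT calls and 80% of the 10 R141C calls. The matching shares over all genes were not worked out, so whether these are usual values is not known. The counts and medians depended on single arrays. Without either WT day 6 array, 7 genes were called in WT (Col14a1, Col23a1, Col26a1, Col5a3, Col6a4, Col6a5 and Col9a1). In R141C, 6 genes were called when R141C day 0 replicate 1, R141C day 0 replicate 2 or R141C day 6 replicate 2 was left out. The median over the 39 genes was 1.47 in WT without WT day 0 replicate 1 and 0.28 without WT day 0 replicate 2. It was 0.92 in R141C without R141C day 6 replicate 1 and -0.10 without R141C day 6 replicate 2.

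**Figure D1:**
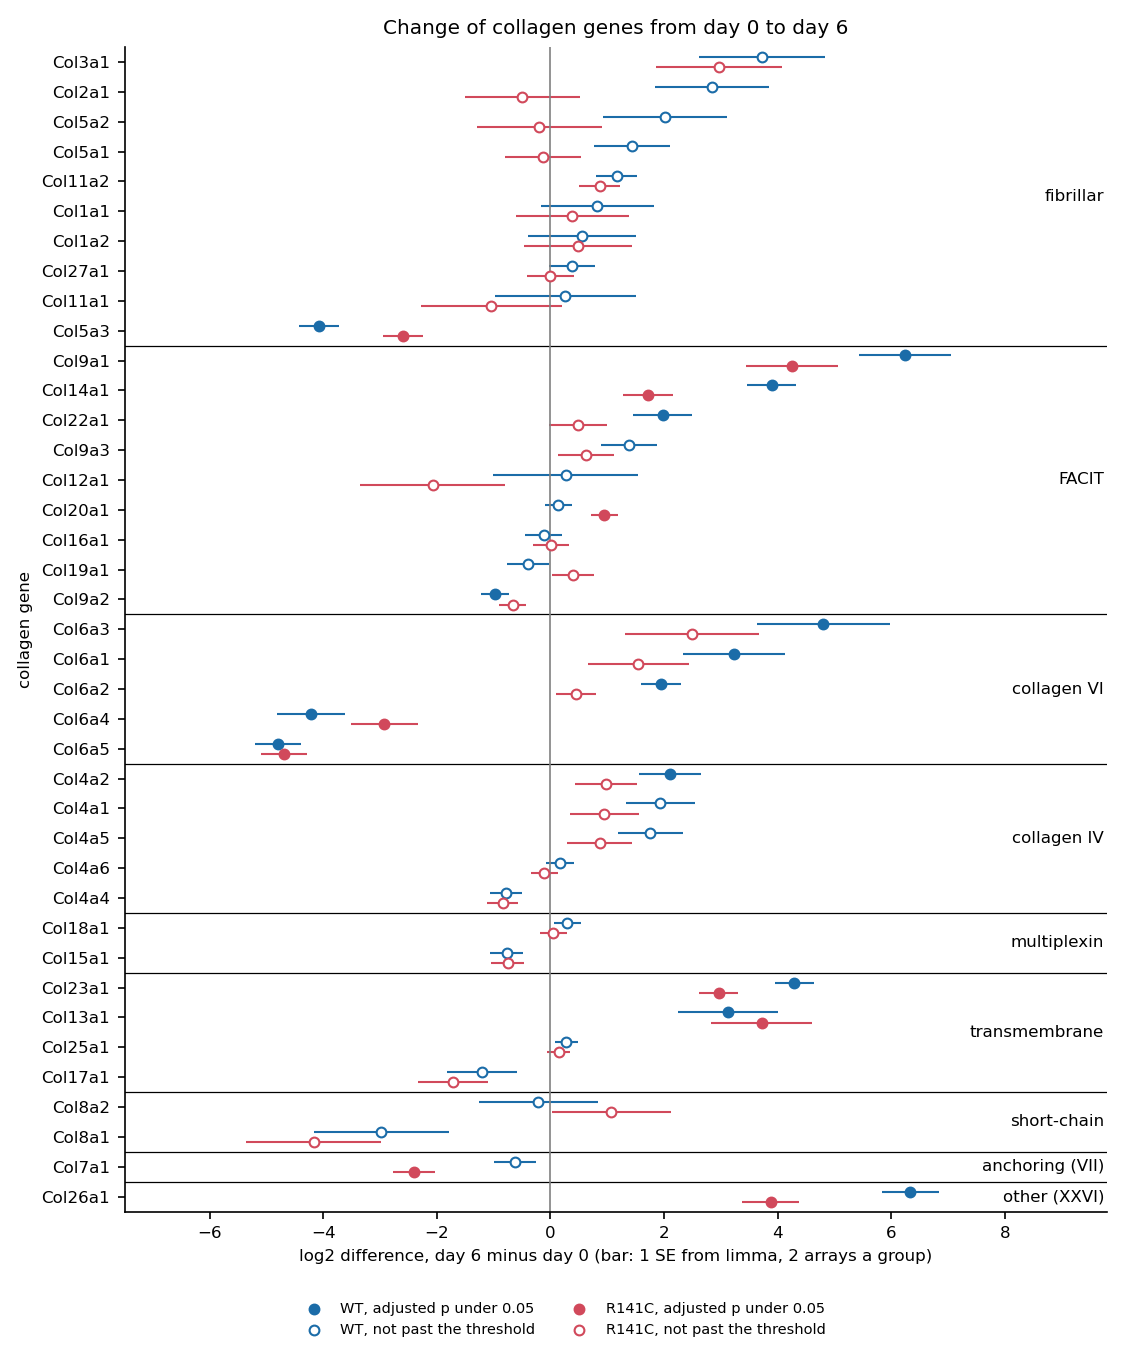
Difference between day 6 and day 0 for the 39 tested collagen genes, grouped by class, on the log2 scale (x axis), in WT (blue) and R141C (red), with bars of 1 standard error and filled points where the adjusted p was under 0.05. Filled points of Col26a1 and Col9a1 lie furthest to the right and those of Col6a5 furthest to the left in both genotypes.

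Among the collagens with no place in the larger classes, Col26a1, which encodes a secreted chain first described in testis and ovary, had the steepest fitted rise in WT. Its signals at day 0 were -1.70 and -2.96 in WT and -2.09 and -1.55 in R141C. At day 6 they were 4.09 and 3.93 in WT and 1.53 and 2.59 in R141C. The days did not overlap in either genotype, and both R141C signals at day 6 were below both WT signals. The differences were 6.34 ± 0.50 in WT (adjusted p = 6.80e-04) and 3.88 ± 0.50 in R141C (adjusted p = 0.00509). The probe lies at chr5:137217629-137217688 in mm9, the build the files use for probe positions. What an annotation of that build places there was not analysed here.

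Fibril-associated collagens (FACIT) sit on the surface of fibrils made by other collagens. Of the 9 tested, 3 rose and 1 fell in WT, and 3 rose in R141C. Col9a1, a chain of the cartilage collagen IX that is also made in notochord and eye, had day 0 signals of -4.77 and -5.45 in WT and -4.20 and -5.09 in R141C. At day 6 its signals were 1.06 and 1.20 in WT and -1.72 and 0.96 in R141C. The WT samples, and R141C replicate 2, were close to each other at day 6, and R141C replicate 1 lay well below them. The rises were 6.24 ± 0.81 (adjusted p = 0.00335) and 4.26 ± 0.81 (adjusted p = 0.0177). Col9a2 and Col9a3, the other chains of that trimer, did not follow. Col9a2 fell by 0.97 on the log2 scale in WT (adjusted p = 0.0308) and differed by -0.67 in R141C (adjusted p = 0.118). The R141C call of Col9a1 was lost in 4 of 20 settings. With only the compared arrays in the fit the adjusted p was 0.0506. It was also lost without R141C day 0 replicate 1 (difference 4.70) or R141C day 0 replicate 2 (difference 3.82). The remaining loss was without both WT day 0 replicate 1 and R141C day 0 replicate 2 (difference 3.82). The call of Col9a2 missed the threshold without WT day 0 replicate 1, WT day 0 replicate 2, WT day 6 replicate 1 or WT day 6 replicate 2, at adjusted p-values of 0.12, 0.0668, 0.101 and 0.181 in turn. With a median shift the Col9a2 call was lost too (adjusted p = 0.0649). The same held without both WT day 0 replicate 1 and R141C day 0 replicate 2 (difference -0.84). Col9a3 differed by 1.38 in WT (adjusted p = 0.0878) and 0.62 in R141C (adjusted p = 0.442). The FACIT genes Col12a1, Col16a1 and Col19a1 did not pass either, with 0.27, -0.12 and -0.40 in WT and -2.08, 0.0047 and 0.40 in R141C.

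Col14a1 encodes a FACIT chain that binds fibrils through decorin. It stood at -5.08 and -6.51 in WT and -5.66 and -5.50 in R141C at day 0. At day 6 it was at -1.995 and -1.81 in WT and -3.87 and -3.86 in R141C. The R141C samples at day 6 were nearly equal and both lay below WT. It rose by 3.90 in WT (adjusted p = 0.00193) and by 1.72 in R141C (adjusted p = 0.0417). Col22a1, known from tissue junctions such as those of muscle and tendon, rose by 1.97 in WT (adjusted p = 0.0343), with 0.48 in R141C (adjusted p = 0.568). Col20a1 passed in R141C only, with 0.94 (adjusted p = 0.0419) against 0.14 in WT (adjusted p = 0.712). Its second probe, above background on all 8 arrays, differed by 0.87 in WT and 1.74 in R141C, so the low WT value is that of the probe used. The test of the difference between the genotypes gave an adjusted p of 0.883 for Col20a1 and 0.887 for Col22a1. The call of Col22a1 missed the threshold without WT day 0 replicate 2, WT day 6 replicate 1 or WT day 6 replicate 2, at adjusted p-values of 0.149, 0.117 and 0.155 in turn. The R141C calls of Col14a1 and Col20a1 each missed the threshold without any one of the 4 R141C arrays or the 2 WT day 6 arrays, with adjusted p-values from 0.0787 to 0.167 for Col14a1 and from 0.0877 to 0.141 for Col20a1. In 14 of 20 settings the Col20a1 call was lost. These included quantile normalization (adjusted p = 0.0565), a median shift (0.0623), normexp correction (0.0603) and the deposited values (0.0545). They also included no filter on dim probes (0.0685), eBayes with trend and robust settings (0.0539) and only the compared arrays in the fit (0.0867). The Col20a1 call was lost too without both WT day 0 replicate 1 and R141C day 0 replicate 2 (difference 0.92). That of Col14a1 in R141C was lost in 10 of 19, also with normexp correction (0.0677), no filter on dim probes (0.0606) and a replicate block (0.0535). With the mean of its probes Col14a1 differed by 0.67 in R141C (adjusted p = 0.227). The second Col14a1 probe differed by 0.36 in WT and -0.38 in R141C.

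The second probe of Col9a1 gave another picture, and RefSeq lists 2 start sites for the gene, 17593 bases apart. The probe with the rise lies at chr1:24259125-24259184 (mm9) and the other at chr1:24201545-24201604, and both were well above background on all 8 arrays. The second one read -3.68 and -3.79 in WT and -3.70 and -3.70 in R141C at day 0. At day 6 it read -4.14 and -3.91 in WT and -3.87 and -3.93 in R141C, differences of -0.29 and -0.20. Which transcript each probe reads was not analysed here. The windows around both start sites (250 bases before and 50 after, RefSeq sequence, GRCm38.p6, plus strand) are shown because the probes disagree and the gene has separate starts. They are chr1:24177360-24177659 for the first and chr1:24194953-24195252 for the second, and capitals mark a CCAAT box.
Col9a1 first start: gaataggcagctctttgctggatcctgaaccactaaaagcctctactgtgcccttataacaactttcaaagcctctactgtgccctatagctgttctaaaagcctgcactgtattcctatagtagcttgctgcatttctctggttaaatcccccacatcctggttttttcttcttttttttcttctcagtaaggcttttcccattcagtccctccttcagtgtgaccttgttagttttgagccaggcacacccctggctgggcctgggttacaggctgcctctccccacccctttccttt
Col9a1 second start: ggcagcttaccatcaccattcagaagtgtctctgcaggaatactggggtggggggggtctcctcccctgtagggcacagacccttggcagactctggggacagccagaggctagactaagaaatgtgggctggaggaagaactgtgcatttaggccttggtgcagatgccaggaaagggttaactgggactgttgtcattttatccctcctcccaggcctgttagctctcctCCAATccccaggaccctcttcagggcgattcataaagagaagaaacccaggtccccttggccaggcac
The second window holds 1 CCAAT box, which begins 18 bases before the start site. Of the cartilage and notochord markers, 6 tested, 3 rose and 1 fell in WT and 3 rose in R141C, and their part in the Col9a1 rise was not tested. Neither window holds the GC box GGGCGG, nor the TATA box TATAAA, nor the SOX core ACAAAG on either strand, and this says only that these letters are not in these windows. Across all 32851 RefSeq promoter windows of this length, 37.4% hold CCAAT, 35.7% GGGCGG, 13.6% TATAAA and 18.7% ACAAAG on either strand.

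Transmembrane collagens stay anchored in the cell membrane and shed their outer part. Col23a1 and Col13a1, a component of the neuromuscular junction, rose in both genotypes. Col25a1 and Col17a1 did not pass in either, with 0.28 and -1.21 in WT and 0.15 and -1.71 in R141C. Col17a1 was above background on no day 6 array. Col23a1 read -4.01 and -3.96 in WT and -3.96 and -3.40 in R141C at day 0. At day 6 it read 0.47 and 0.15 in WT and -1.14 and -0.30 in R141C. No day 6 sample came near a day 0 sample. Its rises were 4.30 ± 0.34 (adjusted p = 6.54e-04) and 2.96 ± 0.34 (adjusted p = 0.00331), and its other 2 probes differed by 6.60 and 5.57 in WT. Col13a1 was not well above background on either R141C array at day 0, nor on 1 of the 2 WT arrays. Its signals were -8.11 and -5.23 in WT and -8.20 and -7.39 in R141C at day 0. At day 6 they were -3.17 and -3.92 in WT and -4.46 and -3.69 in R141C, all above those of day 0. It rose by 3.13 in WT (adjusted p = 0.0454) and was at least 3.8-fold higher at day 6 in R141C (adjusted p = 0.0354). Such a lower bound sets the mean of the bright group against the higher of the lowest signal that counted as well above background and the probe's own signal on each dim array. The WT call of Col13a1 missed the threshold without any single array other than WT day 0 replicate 2, at adjusted p-values from 0.0627 to 0.19. That WT call was also lost with only the compared arrays in the fit (adjusted p = 0.106). The same held without both WT day 0 replicate 1 and R141C day 0 replicate 2. The WT difference of Col13a1 was 1.68 without WT day 0 replicate 1, the WT day 0 array on which it was not above background. Its R141C call missed it without any one of the 4 R141C arrays or the 2 WT day 6 arrays, at adjusted p-values from 0.0615 to 0.164.

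Collagen VI assembles from an alpha 1 chain, an alpha 2 chain and a longer partner chain, which can be that of Col6a3, Col6a4, Col6a5 or Col6a6. In WT the 3 genes of the classic trimer rose and both tested genes of the alternative chains fell. Col6a3 read -5.85 and -5.09 at day 0 and -1.72 and 0.40 at day 6 in WT. In R141C it read -5.76 and -4.14 at day 0 and -4.07 and -0.85 at day 6. Col6a1, the alpha 1 chain gene, went from -2.05 and -2.47 at day 0 to 0.98 and 0.96 at day 6 in WT and from -2.77 and -0.50 to -1.20 and 1.03 in R141C. In R141C at day 6, replicate 1 was the low sample of both genes. The WT rises were 4.81 ± 1.17 for Col6a3 (adjusted p = 0.0284), 3.23 ± 0.89 for Col6a1 (adjusted p = 0.0418) and 1.95 ± 0.35 for Col6a2 (adjusted p = 0.0102). In R141C the differences were 2.49, 1.55 and 0.45, with adjusted p-values of 0.209, 0.296 and 0.436. The WT calls of Col6a3 and Col6a1 each missed the threshold without any one of the 4 WT arrays, with adjusted p-values from 0.0504 to 0.151 for Col6a3 and from 0.105 to 0.155 for Col6a1. The Col6a1 call was also lost with quantile normalization (adjusted p = 0.0533) and with the deposited values (adjusted p = 0.0526). The WT calls of Col6a1, Col6a2 and Col6a3 were lost without both WT day 0 replicate 1 and R141C day 0 replicate 2. Their differences were then 3.44, 2.03 and 4.42. The call of Col6a2 missed the threshold without WT day 6 replicate 1 or WT day 6 replicate 2, at adjusted p-values of 0.0599 and 0.0639 in turn.

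Col6a5 and Col6a4, which lie next to each other on chromosome 9 in the RefSeq gene order, were measured at day 0 and no longer above background at day 6 in either genotype. Col6a5 read -3.09 and -1.88 in WT and -2.82 and -2.97 in R141C at day 0. Col6a4 read -3.94 and -2.49 in WT and -5.54 and -4.13 in R141C at day 0. The 4 day 0 signals of each gene all lay above the 4 day 6 signals, which ran from -7.74 to -7.04 for Col6a5 and from -7.91 to -7.21 for Col6a4. Col6a5 was at least 6.54-fold lower at day 6 in WT (adjusted p = 8.04e-04) and at least 6.23-fold lower in mutant cells (adjusted p = 0.00138). Col6a4 was at least 3.94-fold lower in WT (adjusted p = 0.00447) and at least 1.63-fold lower in mutant cells (adjusted p = 0.0221). The R141C call of Col6a4 missed the threshold without R141C day 0 replicate 2, R141C day 6 replicate 1 or R141C day 6 replicate 2, at adjusted p-values of 0.0822, 0.0687 and 0.0833 in turn. With normexp correction it was lost too, at a difference of -0.68 (adjusted p = 0.236). A second Col6a4 probe, above background on 3 arrays, read -5.83 and -5.48 in WT and -5.64 and -5.86 in R141C at day 0. At day 6 it read -7.58 and -5.06 in WT and -7.53 and -6.96 in R141C. WT day 6 replicate 2 thus lay above all 4 day 0 signals of that probe, whose differences were -0.66 in WT and -1.50 in R141C. Col6a6, the other neighbour of Col6a5, was above background on no array. The start-site windows of the pair (RefSeq, GRCm38.p6, minus strand) are shown because these neighbours fell together. They are chr9:106096642-106096941 for Col6a4 and chr9:105960594-105960893 for Col6a5, with GC boxes (GGGCGG) and CCAAT boxes on either strand in capitals.
Col6a4: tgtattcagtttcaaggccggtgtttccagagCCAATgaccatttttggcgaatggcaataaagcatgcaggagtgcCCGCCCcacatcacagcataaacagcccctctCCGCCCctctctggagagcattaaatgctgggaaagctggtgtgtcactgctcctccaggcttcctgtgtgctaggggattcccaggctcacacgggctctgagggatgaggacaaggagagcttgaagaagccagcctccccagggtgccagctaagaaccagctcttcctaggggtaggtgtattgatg
Col6a5: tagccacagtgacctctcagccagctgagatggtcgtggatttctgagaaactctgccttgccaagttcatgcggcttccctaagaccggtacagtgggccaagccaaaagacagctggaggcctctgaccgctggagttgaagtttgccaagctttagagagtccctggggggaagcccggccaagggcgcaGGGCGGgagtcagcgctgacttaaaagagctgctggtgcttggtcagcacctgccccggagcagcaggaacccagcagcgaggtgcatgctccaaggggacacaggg
The Col6a4 window holds 2 GC boxes and 1 CCAAT box, and the Col6a5 window 1 GC box. Neither holds TATAAA or ACAAAG.

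Collagen IV genes lie in head-to-head pairs, transcribed in opposite directions. Col4a1 and Col4a2 encode the chains of the common basement membrane network. Col4a2 read 2.15 and 0.35 in WT and 2.04 and 2.59 in R141C at day 0. Col4a1 read 2.89 and 0.83 in WT and 2.30 and 2.72 in R141C. At day 6 Col4a2 read 3.28 and 3.44 in WT and 3.30 and 3.27 in R141C, and the Col4a1 signals ran from 3.40 to 3.90. WT day 0 replicate 2 was the low sample of both genes, and the 4 day 6 samples lay close together. Col4a2 rose by 2.11 ± 0.54 in WT (adjusted p = 0.0338). Col4a1 differed by 1.94 ± 0.60 (adjusted p = 0.0599). In R141C the values were 0.97 for Col4a2 (adjusted p = 0.281) and 0.95 for Col4a1 (adjusted p = 0.339). With only the compared arrays in the fit, Col4a2 missed the threshold in WT (adjusted p = 0.0888). The WT call of Col4a2 missed the threshold without any one of the other arrays than WT day 0 replicate 1, with adjusted p-values from 0.0503 to 0.15, and without WT day 0 replicate 2 its difference was 1.21. Without either WT day 0 array, Col4a1 passed in R141C (adjusted p = 0.0452). Of 7 markers of parietal endoderm, a cell type that makes much collagen IV, 4 rose in WT and 2 in R141C. Their mean was 1.16 and 0.31 in WT and 0.93 and 1.92 in R141C at day 0. By day 6 it was 3.43 and 3.44 in WT and 3.10 and 3.17 in R141C, and the part of these cells was not tested.

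The windows of this pair (RefSeq, GRCm38.p6) are chr8:11312777-11313076 on the minus strand for Col4a1 and chr8:11312555-11312854 on the plus strand for Col4a2. They are shown because the start sites lie 21 bases apart and the genes had nearly equal differences in each genotype. In these RefSeq positions the Col4a1 start, at 11312826, lies past the Col4a2 start, at 11312805. The first transcribed bases of both genes thus overlap, on opposite strands. Capitals mark GC boxes and CCAAT boxes on either strand.
Col4a1: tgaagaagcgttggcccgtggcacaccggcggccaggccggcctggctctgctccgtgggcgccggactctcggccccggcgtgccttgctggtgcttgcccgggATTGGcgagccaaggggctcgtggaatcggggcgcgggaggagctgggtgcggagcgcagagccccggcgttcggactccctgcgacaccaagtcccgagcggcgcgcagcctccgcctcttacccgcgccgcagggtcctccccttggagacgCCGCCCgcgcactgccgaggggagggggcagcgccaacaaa
Col4a2: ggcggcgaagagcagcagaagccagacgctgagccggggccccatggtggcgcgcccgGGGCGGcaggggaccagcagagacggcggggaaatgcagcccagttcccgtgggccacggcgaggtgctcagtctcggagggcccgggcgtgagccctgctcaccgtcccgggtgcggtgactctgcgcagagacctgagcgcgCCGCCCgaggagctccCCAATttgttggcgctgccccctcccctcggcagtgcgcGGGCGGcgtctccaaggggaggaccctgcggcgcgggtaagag
The last 78 bases of one window are the last 78 of the other, read from the opposite strand. The GC box that both windows hold there is the same site, 9 bases past the Col4a1 start and 7 past that of Col4a2. Beyond this shared box the Col4a2 window holds 2 more GC boxes and 1 CCAAT box, which begins 32 bases before its start site, and the Col4a1 window holds 1 CCAAT box. Neither holds TATAAA or ACAAAG. Of the 38 windows of the 35 collagen genes that RefSeq's table covers, 60.5% hold a GC box and 34.2% a CCAAT box, a description of the letters only.

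The other pairs were less alike. Of Col4a3 and Col4a4, whose chains serve the specialised basement membranes of kidney and ear together with that of Col4a5, Col4a3 was above background on no array. Col4a4 had a difference of -0.79 in WT (adjusted p = 0.0863) by its brightest probe and 0.69 by another, the only opposite signs of over 0.5 among probes of 1 gene above background. Col4a5 differed by 1.76 in WT (adjusted p = 0.069) and Col4a6 by 0.17 (adjusted p = 0.656).

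A second Col4a6 probe, at chrX:137599990-137600049 (mm9), stood out in a single pair of samples. It read -7.33 and -0.85 in R141C replicates 1 and 2 at day 0 and -4.71 and 1.29 at day 6, against -6.79 and -8.52 in WT at day 0 and -4.23 and -4.22 at day 6. Both samples numbered replicate 2 of R141C were thus far above the other 6. The probe used for Col4a6, at chrX:137601433-137601491, showed nothing of the kind, with -1.56 and -1.84 at day 0 and -1.97 and -1.64 at day 6 in R141C. Of the 55583 probes, 3 were well above background in both samples and more than 3 log2 units above all other samples: this one and 2 probes of Mid1, a ubiquitin ligase gene that is likewise on the X chromosome. The first Mid1 probe read -3.43 and -0.19 at day 0 and -3.84 and 0.75 at day 6 in R141C replicates 1 and 2. Mid1 and this rule were picked after the Col4a6 values had been seen, and the cause was not tested.

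**Figure D2:**
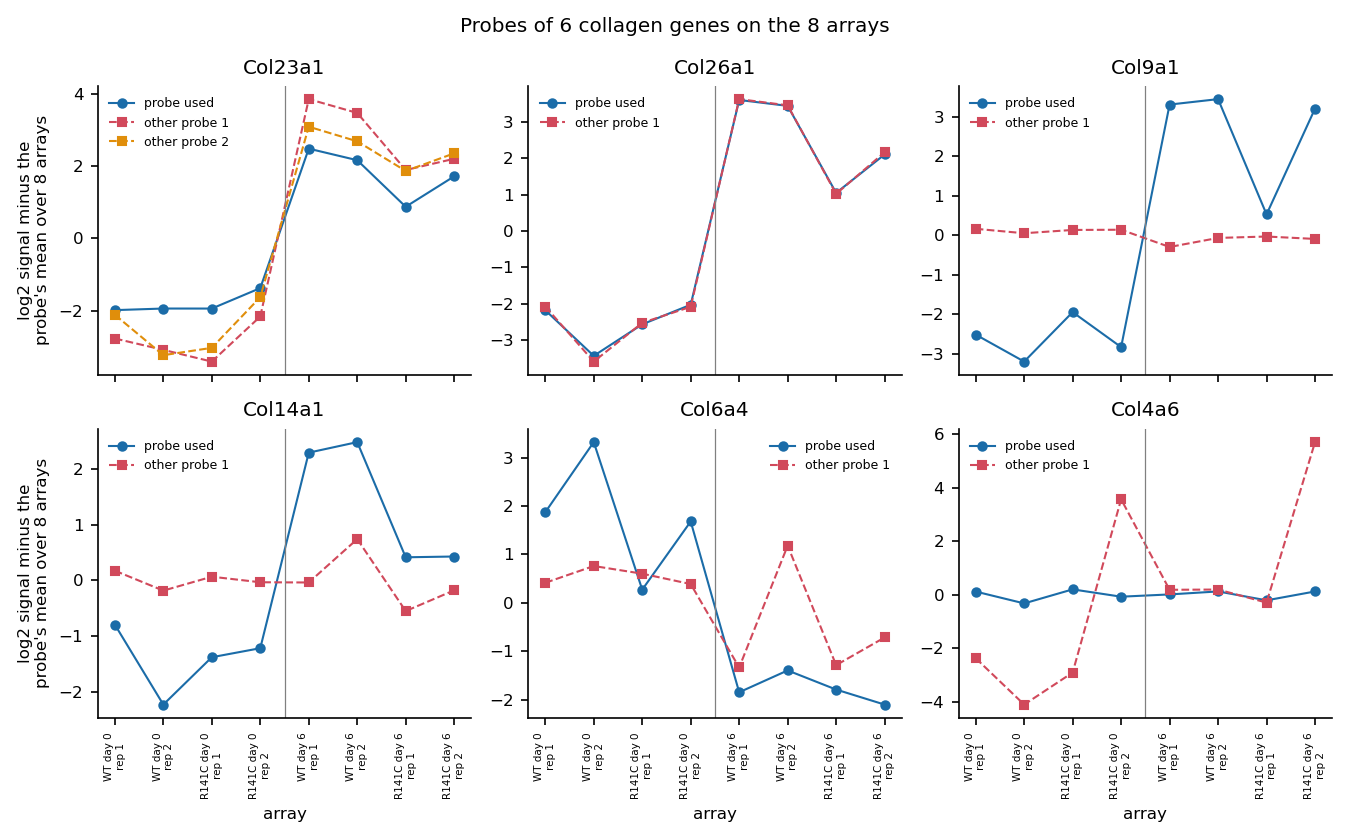
Signal of each probe on the 8 arrays for 6 collagen genes with several probes, as log2 signal minus the probe's own mean (y axis), with the probe used in blue, the others dashed and lines only joining points of 1 probe. The probes of Col23a1 and Col26a1 move together, whereas Col9a1 and Col14a1 have a second probe that stays near its mean, and the second Col4a6 probe is high in R141C replicate 2 on both days.

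Fibrillar collagens form the bulk of connective tissue fibrils. Of the 10 tested, none rose in either genotype and 1, Col5a3, fell in both. Col5a3, a less common chain of collagen V, read -1.50 and -1.45 in WT and -2.73 and -3.05 in R141C at day 0. At day 6 it was not well above background in WT and on 1 of 2 arrays in R141C, with -4.95 and -6.02. The fall was at least 13.2-fold in WT (adjusted p = 8.57e-04), and the R141C difference was -2.59 ± 0.35 (adjusted p = 0.00576). Col1a1 and Col1a2, the chains of collagen I, had differences within their error: 0.82 ± 0.996 and 0.56 ± 0.95 in WT (adjusted p = 0.597 and 0.712). The replicates of these genes were far apart at day 0, and without single arrays their WT differences ran from -0.11 to 1.76 and from -0.63 to 1.75. Col3a1, the collagen of loose and vascular tissue, read -1.33 and -2.35 at day 0 and 1.38 and 2.41 at day 6 in WT, a difference of 3.73 ± 1.11 that missed the threshold (adjusted p = 0.0523) and passed it in 8 of 20 other settings. Col2a1, the cartilage collagen, had a WT difference of 2.84 ± 1.01 (adjusted p = 0.0872). Of the others, Col5a2, Col5a1, Col11a1, Col11a2 and Col27a1, the WT differences were 2.02, 1.43, 0.26, 1.16 and 0.38, and the R141C differences -0.20, -0.13, -1.04, 0.87 and 0.00045, none past the threshold. Col24a1, untested, was above background on 1 of 2 arrays at day 6 in each genotype and on none at day 0. It read -7.95 and -7.20 at day 0 and -4.95 and -4.95 at day 6 in WT, and -7.57 and -7.56 and then -5.29 and -4.80 in R141C.

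In the remaining classes 1 gene passed, in R141C. Col7a1, whose protein makes the anchoring fibrils under stratified epithelia, read 2.83 and 3.46 at day 0 and 0.89 and 0.61 at day 6 in R141C. In WT it read 2.78 and 1.82 at day 0 and 1.59 and 1.75 at day 6. It fell by 2.40 on the log2 scale in R141C (SE 0.37, adjusted p = 0.00866) and differed by -0.63 in WT (adjusted p = 0.259), while the test of that contrast between genotypes gave -1.77 with an adjusted p of 0.765. The multiplexins, basement membrane collagens with endostatin-like ends, did not pass. Col18a1 differed by 0.29 and Col15a1 by -0.77 in WT, and by 0.05 and -0.75 in R141C. The probe used for Col15a1 was above background on no day 6 array. Col8a1, a short-chain network collagen, was above background at day 0 in WT and on neither WT array at day 6. That made it at least 3.41-fold lower (adjusted p = 0.117), and without WT day 0 replicate 2, the dimmer of its day 0 samples, the adjusted p was 0.0484. In R141C the difference of Col8a1 was -4.17 (adjusted p = 0.0604), and without either WT day 0 array the adjusted p was 0.0332.

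**Figure D3:**
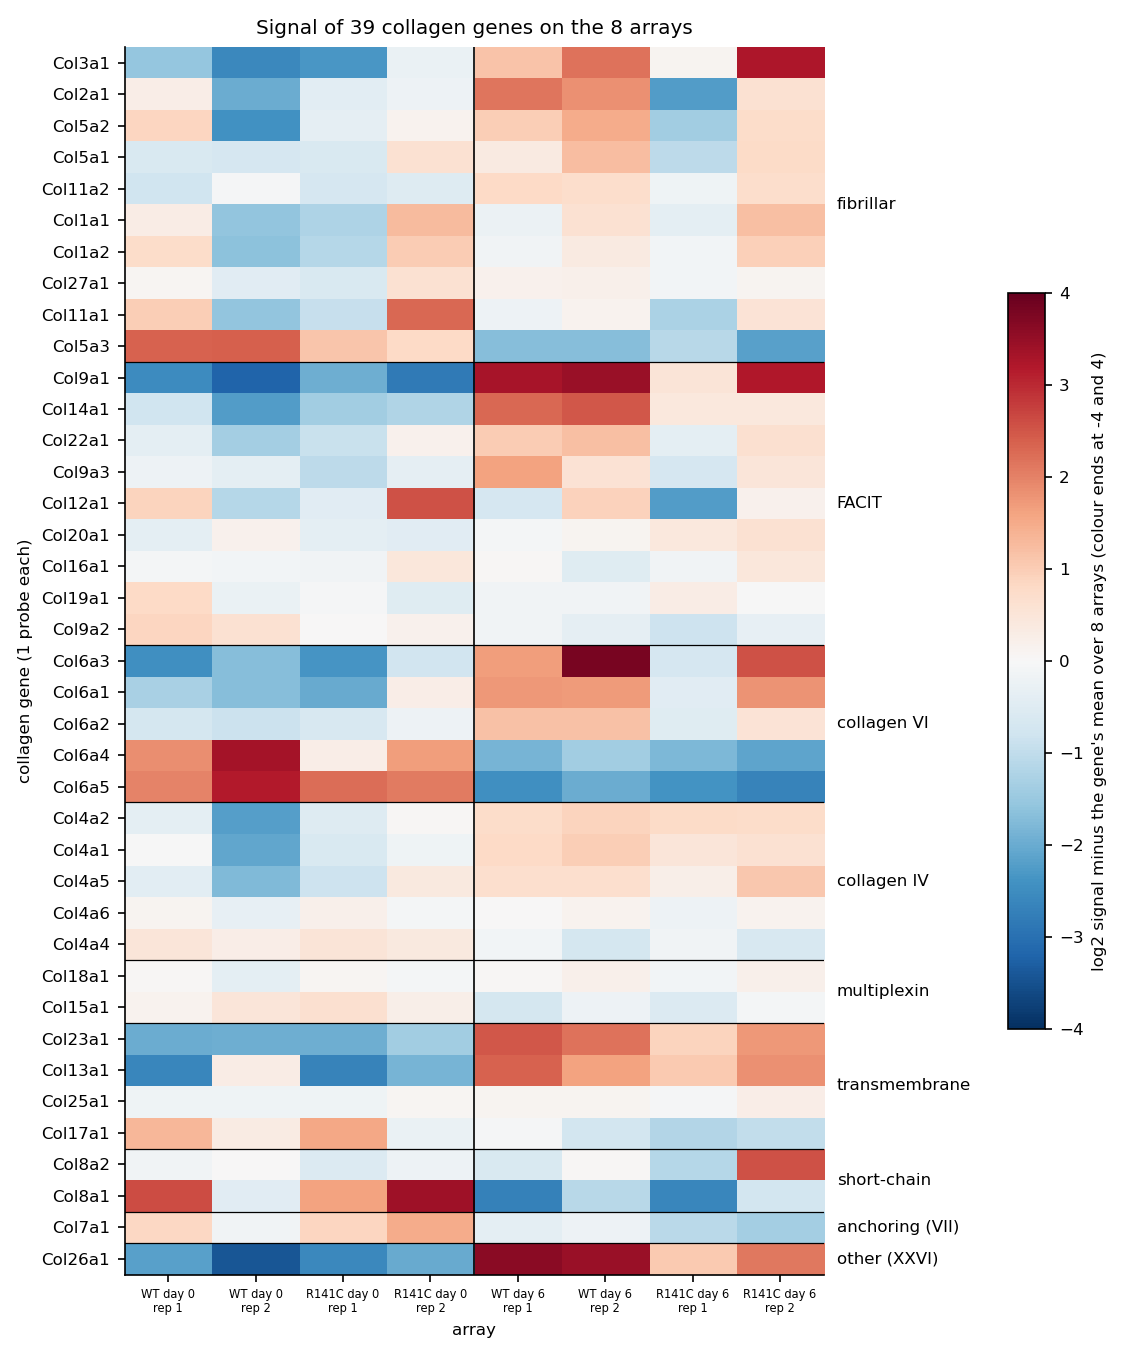
Signal of the 39 tested collagen genes (rows, by class) on the 8 arrays (columns), coloured by log2 signal minus the gene's mean over the arrays. Col26a1, Col9a1 and Col23a1 turn from blue at day 0 to red at day 6 and Col6a5 and Col6a4 from red to blue, while R141C day 6 replicate 1 is paler or bluer than its neighbour for 32 of the 39 genes.

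At day 0 the replicates of each genotype lay far apart for many collagen genes. In WT, replicate 1 was above replicate 2 for 29 of 39 collagen genes, and in R141C replicate 2 was above replicate 1 for 29. The median of replicate 2 minus replicate 1 was -0.45 in WT and 0.54 in R141C, beside -0.01 and -0.15 over all genes. The median gap between replicates was 0.96 in WT and 0.57 in R141C for collagen genes, beside 0.30 and 0.32 over all genes. Col1a1 read 3.81 and 1.94 in WT replicates 1 and 2 and 2.28 and 4.77 in R141C replicates 1 and 2. Col11a1, a minor fibrillar chain of cartilage, read -1.20 and -3.77 in WT and -3.11 and 0.09 in R141C. Col12a1, a FACIT chain of tendon and other dense tissue, read -2.64 and -4.67 in WT and -3.97 and -0.98 in R141C. WT replicate 1 and R141C replicate 2 were the high samples for each, and the genotypes overlapped. Col11a1, Col12a1, Col1a1, Col1a2, Col3a1, Col4a5 and Col8a1 were the 7 genes with both gaps above 1, a cut chosen after the values were seen.

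Among the genes of the pathway lists, 2 with the same split were picked after their values were seen. Lox, which crosslinks collagen, read -3.68 and -6.56 in WT and -6.10 and -2.36 in R141C at day 0 and was above background on WT replicate 1 and R141C replicate 2 only. Itga11, a collagen receptor of fibroblasts, read -0.28 and -4.18 in WT and -1.68 and -0.12 in R141C. The mean of the 8 fibroblast and mesenchyme markers was -2.60 and -3.46 in WT and -2.91 and -1.96 in R141C at day 0. The part of other cell types in this split was not tested. Without the samples WT replicate 1 and R141C replicate 2 of day 0, 11 collagen genes were called between the days in WT and 10 in R141C, and the WT median was 1.47.

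**Figure D4:**
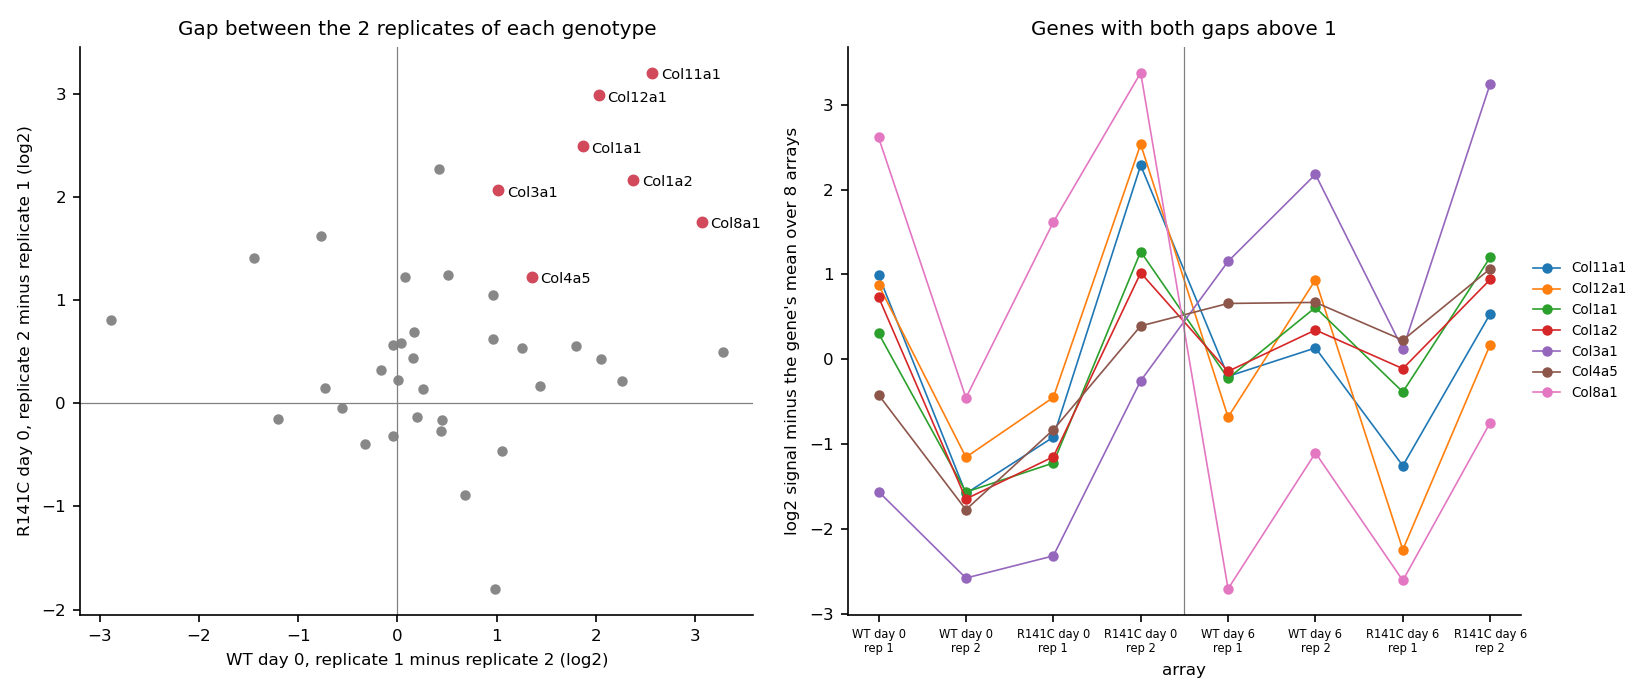
Left, the gap between day 0 replicates for each collagen gene, WT replicate 1 minus 2 (x axis) against R141C replicate 2 minus 1 (y axis), both log2, with the 7 genes above 1 on both axes in red. Right, the log2 signals of those genes on the 8 arrays, each minus its mean, with lines only joining points of 1 gene; WT replicate 1 and R141C replicate 2 are the high day 0 samples.

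At day 6 no collagen gene passed the test between R141C and WT, where 0.0657% of all genes did. Before adjustment 6 of the 39 had p under 0.05, all lower in R141C, beside 8.54% of all genes in either direction and 3.39% lower. Of the 39 genes, 28 had a difference below 0, a share of 71.8% beside 41.9% of all genes. The median difference was -0.33, beside 0.07 over all genes. The signals did not overlap for 15 genes, 13 of them lower in R141C, a share of 38.5% beside 44.3% of all genes (16.5% lower). R141C replicate 1 was below the WT mean for 34 of the 39 genes, by over 1 log2 unit for 15, and replicate 2 for 23, by over 1 for 4. These counts were made for collagen genes only. The median of R141C replicate 2 minus replicate 1 was 0.84 for collagen genes, beside -0.10 over all genes. The median genotype difference of the 39 was -0.08 without replicate 1 and -0.77 without replicate 2. Replicate 1 was also the low sample in the cardiomyocyte and mesenchyme markers given above, and their part in the difference was not tested.

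The genes with the smallest p at day 6 were among those that rose with time in WT. Both comparisons use the same WT day 6 arrays, and high signals there push both results. This overlap is therefore not a separate finding. Col14a1 differed by -1.96 ± 0.43 (adjusted p = 0.307), Col26a1 by -1.95 ± 0.50 (adjusted p = 0.385) and Col6a2 by -1.14 ± 0.35 (adjusted p = 0.456). For Col14a1 both R141C samples lay about equally far below WT. Col23a1, Col2a1 and Col7a1 completed the 6 with p under 0.05. By class, the median difference was -1.06 for collagen VI, whose 5 tested genes were all below 0, -0.98 for the FACIT genes and -0.07 for collagen IV. Col2a1, with -0.44 and 2.38 in R141C and 3.92 and 3.63 in WT, had the most negative difference, -2.80 ± 1.01 (adjusted p = 0.512), and its R141C samples were far apart. On the higher side stood Col20a1 with 0.49 ± 0.24, Col16a1, a FACIT chain, with 0.36 ± 0.32 and Col8a2, a partner of Col8a1, with 0.97 ± 1.05. Their adjusted p-values were 0.648, 0.778 and 0.821. Without R141C day 6 replicate 1 the R141C difference of Col8a2 from day 0 was 2.93, and without replicate 2 it was -0.78. At day 6 Col8a2 was high in R141C replicate 2 only, with -4.72 and -1.01 in R141C against -4.17 and -3.51 in WT. A second Col8a2 probe, above background on 6 arrays, did not show this, with -5.21 and -4.79 in R141C at day 6. It differed by -0.09 from day 0 in R141C and by 0.15 from WT at day 6.

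**Figure D5:**
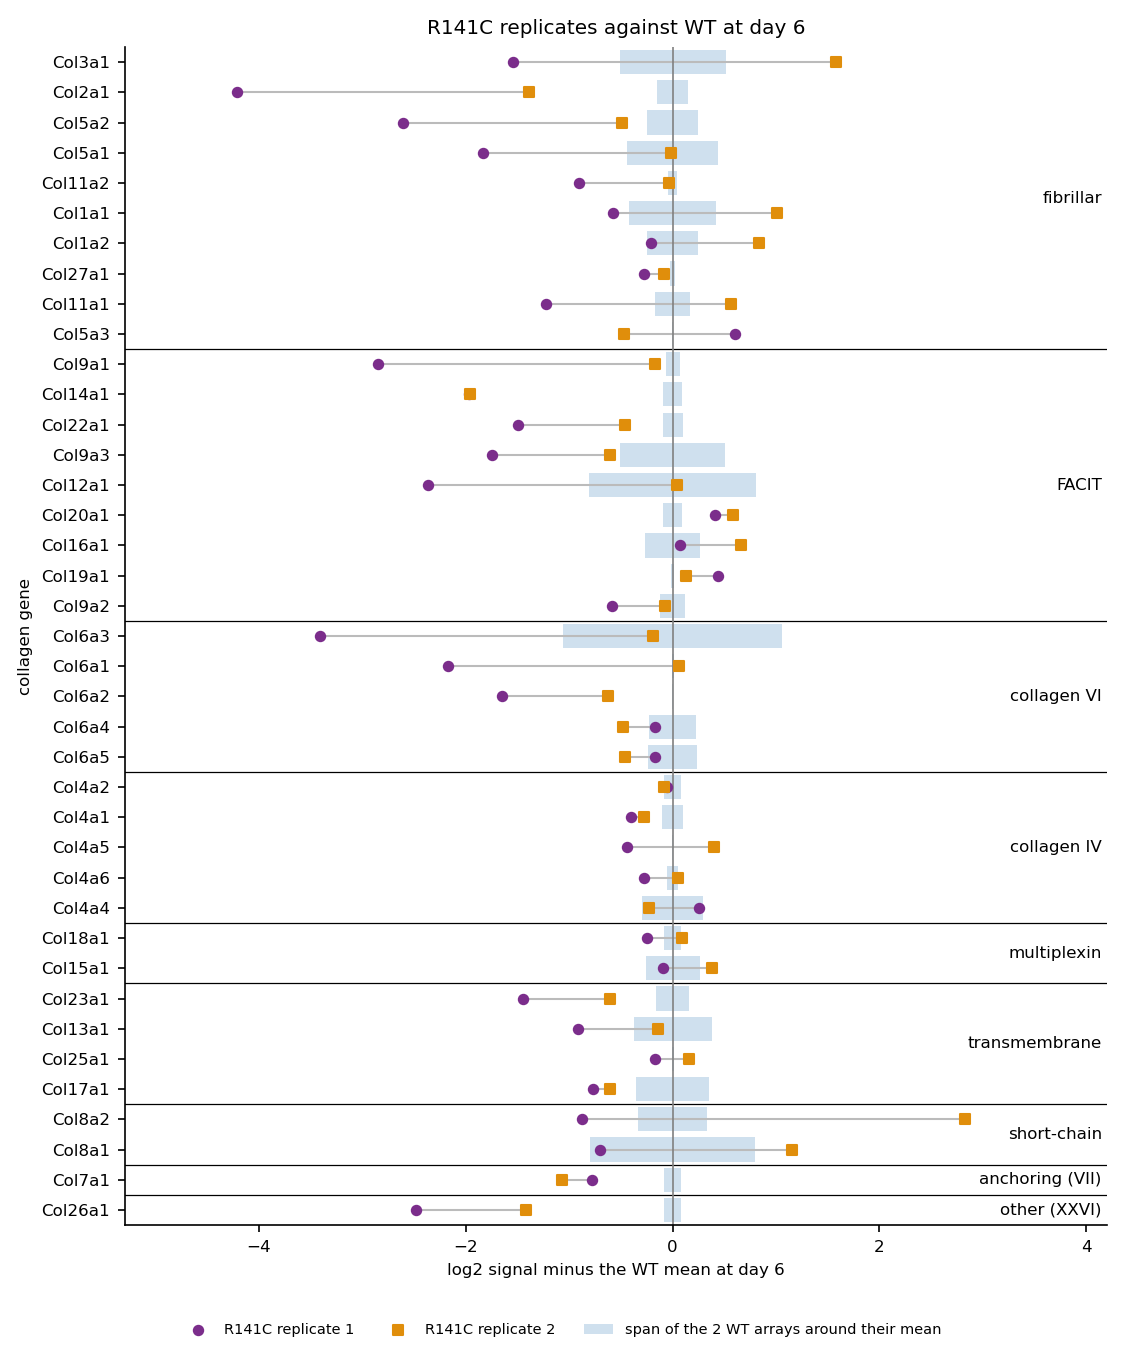
Log2 signal of each R141C replicate at day 6 minus the WT mean (x axis) for the 39 collagen genes, replicate 1 as purple circles and replicate 2 as orange squares, with the span of the WT samples shaded. Replicate 1 lies below replicate 2 for 32 genes, and for Col14a1 both R141C samples lie on the same spot near -1.96.

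Before differentiation no collagen gene passed the test between the genotypes, as no gene of the array did (0% of all genes). At unadjusted p under 0.05 there were 3, all lower in R141C, beside 4.5% of all genes (2.21% lower). These were Col5a3 with -1.42 ± 0.35, Col6a4 with -1.62 ± 0.60 and Col9a2 with -0.64 ± 0.24, each with an adjusted p of 0.9995. On the higher side Col7a1 had 0.84 ± 0.37, Col4a2 1.06 ± 0.54 and Col4a5 0.88 ± 0.57 with the same adjusted p. The median was 0.30, beside 0.0046 over all genes, and the genotypes did not overlap for 8 of the 39, a share of 20.5% beside 28.8% of all genes. The change of the genotype difference between the days also passed for no collagen gene (0% of all genes). Before adjustment 7 had p under 0.05, beside 5.64% of all genes, 2 upwards (3.14% of all genes) and 5 downwards (2.5%). The downward ones with the smallest p were Col14a1 at -2.18 ± 0.61 (adjusted p = 0.755), Col26a1 at -2.46 ± 0.71 (adjusted p = 0.761) and Col7a1, given above, followed by Col6a2 and Col23a1. The upward ones were Col5a3 at 1.49 ± 0.50 (adjusted p = 0.826) and Col20a1 at 0.80. At day 6 Col5a3 was above background on neither WT array and on 1 R141C array. Its genotype difference was 0.07 there, against -1.42 at day 0, so its change mostly follows day 0. The upward difference with the next smallest p was that of Col19a1, a FACIT chain, at 0.80 (adjusted p = 0.922). The median was -0.76, beside 0.08 over all genes. These comparisons share samples with each other.

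The other genes of collagen synthesis and turnover were taken as lists, whose counts stand beside 11% of all tested genes that rose and 12.9% that fell in WT, and 7.6% and 8.04% in R141C. Of 18 tested enzymes and chaperones of modification and folding, 5 rose and 1 fell in WT and 2 rose in R141C. P4ha1 and P4ha2, catalytic subunits of the prolyl 4-hydroxylase that stabilises the helix, rose in both. P4ha1 went from -2.62 and -2.13 at day 0 to 0.72 and 0.33 at day 6 in WT and from -3.04 and -1.84 to 0.92 and 1.13 in R141C. Its differences were 2.90 ± 0.41 (adjusted p = 0.00452) and 3.46 ± 0.41 (adjusted p = 0.00382), and those of P4ha2 1.99 ± 0.35 (adjusted p = 0.00961) and 1.99 ± 0.35 (adjusted p = 0.0138). P3h2, a prolyl 3-hydroxylase active on collagen IV, rose by 2.89 in WT (adjusted p = 0.0157) and Serpinh1, the collagen chaperone HSP47, by 2.003 (adjusted p = 0.0215). In R141C these stood at 1.67 and 1.07 (adjusted p = 0.109 and 0.164).

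Of 12 tested genes of procollagen cleavage and crosslinking, 4 rose and 3 fell in WT, and 1 rose and 3 fell in R141C. Adamts2, which removes the amino-terminal propeptide, went from -2.38 and -2.93 to 1.26 and 2.62 in WT, a rise of 4.59 ± 0.95 (adjusted p = 0.0159). Loxl2, a lysyl oxidase-like enzyme, rose by 2.99 in WT (adjusted p = 0.0219). Pcolce2 and Pcolce, enhancers of carboxy-terminal cleavage, fell in both genotypes. Pcolce2 went from 3.30 and 3.12 to -0.28 and -0.12 in WT and from 2.71 and 2.92 to 0.02 and -0.55 in R141C. Its differences were -3.41 (adjusted p = 5.56e-04) and -3.08 (adjusted p = 0.00116), with -2.47 (adjusted p = 0.00776) and -1.87 (adjusted p = 0.0272) for Pcolce. Adamts3 was the 1 gene of this list that rose in R141C, by 1.14 (adjusted p = 0.0119).

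Of 8 tested collagen receptors 1 rose in each genotype, Mrc2, which takes up collagen fragments, by 2.59 in WT (adjusted p = 0.00241) and 1.72 in R141C (adjusted p = 0.0143). Of 4 tested genes of collagen breakdown, the gelatinases Mmp2 and Mmp9 rose in WT, by 2.25 and 2.70 (adjusted p = 0.00898 and 0.0171), and Mmp2 in R141C, by 1.62 (adjusted p = 0.0358). Of 13 basement membrane partners of collagen IV, 2 rose and 2 fell in WT, and 1 rose and 2 fell in R141C. The laminin chain gene Lama4 rose by 3.41 in WT and 3.14 in R141C (adjusted p = 0.00458 and 0.00877), and Lama3 fell in both, with -1.64 and -1.05 (adjusted p = 0.00323 and 0.021). Of 9 fibril regulators 2 rose in WT and none in R141C, and Lum, the keratan sulfate proteoglycan lumican, had 0.88 and 1.73 in WT at day 6 and -4.65 and 2.85 in R141C, again low in replicate 1. Of 6 transcription factors of collagen genes 2 rose in WT and 1 in R141C. Sox9, which drives cartilage collagen genes including Col2a1 and Col9a1, rose by 6.02 ± 0.32 in WT (adjusted p = 3.20e-04) and 4.50 ± 0.32 in R141C (adjusted p = 8.86e-04). No gene of these lists passed the test between the genotypes at day 6.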

How the data were processed

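The 8 samples were total RNA of mouse ES cells and embryoid bodies, labelled with Cy3 and hybridised to 1-colour Agilent arrays. The deposited scanner files hold the processed intensity of each spot, already corrected for background, and flags (other values) for spots well above background, outliers and controls, per the file headers, which name Feature Extraction 11.5.1.1, whereas the submitters' processing notes name version 10.5.1.1. The authors' log2 values in the deposited value table served as an alternative. Intensities of non-control, non-outlier spots were averaged per probe and then taken to the log2 scale. The 75th percentile of each array's probes (936 to 1848 as intensity) was subtracted last, on the log2 scale. Limma 3.58.1 (R 4.3.3) fitted 4 group means to 8 arrays (4 residual and 2.70 prior degrees of freedom), with 4 differences and the interaction tested over 25892 genes. Arrays limit precision by their number, 2 per group.

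Genes were named from the files, and promoter windows came from RefSeq for 35 of the 44 genes. Named were the 10 greatest called rises and falls per comparison or, where none passed, the 3 smallest p each way, called class members, and up to 4 called genes per pathway list. Members and lists were chosen with earlier results of these data known. Replicates are biological per the labels. No array was left out or imputed in the reported values. Normalization, background correction, dim-probe filter, probe choice, eBayes options, samples in the fit, a replicate block and leaving out arrays were varied, for collagen genes only. The tests were tested on simulated data. Groups of 2 had no outlier test.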

Additional observations from a re-analysis of the deposited data

How the results depend on the processing

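No called difference of a collagen gene changed sign in the settings run for it. Of the alternative values for single collagen genes 2426 kept their sign and their side of the threshold, 79 lost and 38 gained a call, and 113 changed sign, in 53 differences, with 0 of these called in either setting. Most gains in WT were those of Col3a1 (8 of 20 settings), Col11a2 (5 of 20) and Col4a1 (5 of 20). In R141C the gains were spread over Col8a1 (4 of 19), Col4a1 (2 of 20) and Col17a1 (2 of 18). Col4a2, Col8a2, Col3a1 and Col6a3 each gained a call in 1 of 20 settings there. In WT over time, Col14a1, Col23a1, Col26a1, Col5a3, Col6a4, Col6a5 and Col9a1 kept their calls in every setting run for them, and in R141C Col23a1, Col26a1, Col5a3, Col6a5 and Col7a1 did. Col14a1, Col5a3, Col6a4 and Col6a5 are not among the genes with probes above background on all 8 arrays, so 19 settings were run for them and not 20. With single arrays left out, the WT count ran from 7 to 15 and the median from 0.28 to 1.47, and the R141C count from 6 to 12 and the median from -0.10 to 0.92, below 0 without R141C day 6 replicate 2. The genotype difference stayed at 0 calls, with medians from -0.775 to -0.0816 at day 6 and -0.03 to 0.59 at day 0 (-0.03 without WT day 0 replicate 2 and -0.01 without R141C day 0 replicate 2), and the interaction at 0 calls with medians from -1.28 to -0.22. With only probes above background on all 8 arrays, which left 27 genes, the WT median was 1.43 and 5 genes were called in R141C. With the brightest probe taken by linear mean, the WT median was 1.02, and without WT day 0 replicate 1 and R141C day 0 replicate 2 it was 1.47; both settings were chosen after seeing the data. The same-numbered replicates did not all deviate together. Over 25892 genes their deviations correlated at 0.34 between R141C day 0 and R141C day 6, and from -0.14 to 0.08 for the other pairs of groups. The reported tests did not pair replicates. With a replicate block 17 genes were called in WT, 10 in R141C and 0 in the other comparisons, while the R141C call of Col14a1 was lost (adjusted p = 0.0535). Pairing the day 0 replicates crosswise, also chosen after seeing the data, called 0 genes of the array between the genotypes. Signals near background limit Col6a4 and Col6a5 in both genotypes, Col5a3 and Col8a1 in WT and Col13a1 in R141C, for which a fold is only a lower bound. The probes used for Col15a1 and Col17a1 were above background on no day 6 array, so their differences over time are not exact sizes either.

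With single arrays left out some differences that were not called changed sign, and their ranges over these fits follow. In WT over time these were Col8a2 from -0.55 to 0.12, Col11a1 from -1.02 to 1.55, Col12a1 from -0.75 to 1.28, Col16a1 from -0.39 to 0.15, Col19a1 from -0.93 to 0.13, Col1a1 from -0.11 to 1.76, Col1a2 from -0.63 to 1.75, Col20a1 from -0.14 to 0.42 and Col4a6 from -0.051 to 0.39. In R141C over time these were Col8a2 from -0.78 to 2.93, Col18a1 from -0.12 to 0.22, Col11a1 from -2.64 to 0.56, Col16a1 from -0.29 to 0.30, Col1a1 from -0.86 to 1.63, Col1a2 from -0.60 to 1.56, Col22a1 from -0.041 to 1.005, Col25a1 from -0.014 to 0.31, Col27a1 from -0.62 to 0.62, Col2a1 from -1.91 to 0.92, Col4a6 from -0.27 to 0.059, Col5a1 from -1.04 to 0.77, Col5a2 from -1.26 to 0.86 and Col6a2 from -0.063 to 0.96. Between the genotypes at day 6 these were Col8a2 from -0.88 to 2.83, Col1a1 from -0.58 to 1.01, Col1a2 from -0.21 to 0.84, Col4a2 from -0.15 to 0.0099, Col6a1 from -2.17 to 0.059, Col8a1 from -0.70 to 1.16, Col25a1 from -0.17 to 0.15, Col18a1 from -0.25 to 0.086 and Col15a1 from -0.12 to 0.40. Between the genotypes at day 0 these were Col1a1 from -0.59 to 1.90, Col1a2 from -0.80 to 1.58, Col4a1 from -0.38 to 1.68, Col6a1 from -0.51 to 1.76, Col8a1 from -0.12 to 2.95, Col16a1 from -0.052 to 0.53, Col18a1 from -0.059 to 0.39, Col15a1 from -0.075 to 0.32 and Col26a1 from -0.12 to 1.14. In the change of the genotype difference these were Col1a1 from -1.68 to 0.81, Col1a2 from -1.27 to 1.11, Col4a1 from -2.02 to 0.0402, Col8a2 from -0.57 to 3.14, Col8a1 from -2.72 to 0.35, Col16a1 from -0.17 to 0.42, Col25a1 from -0.30 to 0.025 and Col15a1 from -0.24 to 0.28. Outside these fits the following differences changed sign, with the value each took. With quantile normalization these were Col16a1 at -0.0068 in R141C over time, then Col15a1 at -0.00079 between the genotypes at day 6, then Col15a1 at -0.17 in the change of the genotype difference. With a median shift these were Col16a1 at 0.0018 in WT over time, then Col15a1 at -0.081 in the change of the genotype difference. With normexp correction these were Col15a1 at 0.099 and Col19a1 at 0.034 in WT over time, then Col18a1 at -0.028, Col15a1 at 0.059 and Col5a2 at 0.066 in R141C over time, then Col25a1 at 0.20 and Col15a1 at -0.065 between the genotypes at day 6, then Col15a1 at -0.025 between the genotypes at day 0, then Col25a1 at 0.15 and Col15a1 at -0.0404 in the change of the genotype difference. With the deposited values this was Col15a1 at -0.099 in the change of the genotype difference. With the mean of a gene's probes these were Col15a1 at 0.44, Col16a1 at 0.28, Col19a1 at 0.33 and Col4a4 at 0.32 in WT over time, then Col18a1 at -0.021, Col15a1 at 0.88, Col25a1 at -0.22 and Col4a6 at 1.13 in R141C over time, then Col18a1 at 0.026 between the genotypes at day 6, then Col16a1 at -0.22 in the change of the genotype difference. With the brightest probe by linear mean this was Col4a6 at 2.38 in R141C over time. Without both WT day 0 replicate 1 and R141C day 0 replicate 2 these were Col19a1 at 0.13 and Col20a1 at -0.14 in WT over time, then Col18a1 at -0.032, Col11a1 at 0.56, Col5a1 at 0.48 and Col5a2 at 0.053 in R141C over time, then Col6a1 at -0.30, Col16a1 at -0.036 and Col23a1 at -0.00064 between the genotypes at day 0, then Col15a1 at -0.0103 in the change of the genotype difference. The causes were not tested.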

Other observations

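Collagen genes that are direct neighbours in the RefSeq gene order formed 8 pairs, on chromosomes 1, 8, 9, 10 and X, and their differences over time were set side by side as a description. On chromosome 1, Col9a1 rose in WT (6.24) beside Col19a1, which stood at -0.40 (adjusted p = 0.477). Col3a1 and Col5a2, also neighbours there, stood at 3.73 and 2.02 in WT and at 2.97 and -0.20 in R141C, none of them past the threshold. Col6a1 and Col6a2 on chromosome 10 both rose in WT. On chromosome 9, Col6a5 and Col6a4 both fell in WT and in R141C.

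The second Mid1 probe that stood apart in R141C replicate 2 read -3.34 and -0.16 in R141C replicates 1 and 2 at day 0 and -3.53 and 0.89 at day 6. In WT it read -3.97 and -5.79 at day 0 and -3.45 and -3.45 at day 6. When each of the other array pairs was treated the same way, 0 to 8 probes stood more than 3 log2 units above all other arrays, 8 of them for the WT day 6 pair.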
